A study of Homo sapiens with 4 samples.

Results

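The receptors and binding proteins of the insulin-like growth factor (IGF) system were examined in C4-2 cells, a long-established line of human prostate cancer derived from LNCaP. The 8 genes were chosen by symbol: the receptors IGF1R, INSR and IGF2R and the binding proteins IGFBP2, IGFBP3, IGFBP4, IGFBP5 and IGFBP6. Each matched 1 of the 60483 gene identifiers of the count tables. All RNA came from this 1 line, at passage 20 to 30 per the labels. The C4-2-CON group held 2 libraries of control cells and the C4-2-ENZ group 2 libraries of cells resistant to enzalutamide, an antiandrogen drug used against prostate cancer. Per the labels, cells were kept with or without it for 1 month, so culture with the drug and resistance cannot be told apart in any difference below. The labels name RPMI medium with serum and also FGF-2, without saying which cells received FGF-2, and name no vehicle for the control cells. Whether the 2 replicates of a group were grown separately is not stated, so every p-value reflects spread among these libraries alone and that spread may be technical.

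IGF1R is the tyrosine kinase receptor for IGF1 and IGF2, and signals through insulin receptor substrates to PI3K and AKT and through SHC and GRB2 to MAP kinases. INSR, the insulin receptor, is its closest relative and forms hybrid receptors with it, while IGF2R (also the cation-independent mannose 6-phosphate receptor) carries IGF2 and lysosomal enzymes to lysosomes and has no kinase. The IGFBPs are secreted proteins that hold IGFs away from or near the receptors, and several also act without IGFs. In the prostate, IGF1 is mostly a stromal product and epithelial cells carry the receptors.

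IGFBP3 was 12.3-fold higher and IGF1R 5.37-fold lower in C4-2-ENZ than in C4-2-CON libraries. INSR, IGF2R and IGFBP2 were each between 1.52-fold and 1.62-fold higher. IGFBP4, IGFBP5 and IGFBP6 stayed at or below 14 counts in every library. The sequences before the RefSeq starts of IGFBP3 and IGF1R are shown first, because these genes had the largest rise and the largest fall among the 6 genes that passed the count filter. Each line holds the 250 bases before the RefSeq start (GRCh38.p14), 5' to 3' on the gene's strand. Capitals mark GC boxes (GGGCGG) and TATA boxes. A TATA box was the run TATAAA, and the variant TATATA was counted with it. All searches covered both strands. No matches of different motifs overlap in the sequences shown. The IGFBP3 window is chr7:45921273-45921522, minus strand, and the IGF1R window is chr15:98648289-98648538, plus strand.
IGFBP3: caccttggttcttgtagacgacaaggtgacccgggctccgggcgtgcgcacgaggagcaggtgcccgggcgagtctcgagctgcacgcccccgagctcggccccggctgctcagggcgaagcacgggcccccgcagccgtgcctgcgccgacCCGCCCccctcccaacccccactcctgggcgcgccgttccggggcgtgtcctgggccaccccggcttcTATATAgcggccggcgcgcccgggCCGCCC
IGF1R: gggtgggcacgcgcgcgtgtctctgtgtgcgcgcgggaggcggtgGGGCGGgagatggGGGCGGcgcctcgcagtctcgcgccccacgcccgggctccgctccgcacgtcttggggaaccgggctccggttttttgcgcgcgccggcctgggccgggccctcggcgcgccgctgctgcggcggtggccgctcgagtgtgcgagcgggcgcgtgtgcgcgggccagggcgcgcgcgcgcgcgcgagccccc
Both windows held 2 GC boxes, and GC content was 76.0% for IGFBP3 and 81.2% for IGF1R, against a median of 58.0% over 35116 promoters of the same length. IGFBP3 had 1 TATA box, first base at -30, and IGF1R had no match to these letters. Over all 8 genes, which all had a RefSeq window, a GC box was in each but IGFBP5 and a TATA box in IGFBP3 and IGFBP4. Among the 35116 promoters, 42.64% held a GC box and 12.76% a TATA box. These are matches of letters, not measured sites.

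Library depth ran from 25589724 to 45033885 gene counts, with both C4-2-ENZ libraries deeper. Levels below are in CPM, a gene's counts set to a common library total, with totals scaled by the TMM method. Reads not aligned made up 34.16% and 36.95% of HTSeq records in C4-2-CON and 20.32% and 20.66% in C4-2-ENZ libraries, and the part of this difference in the results was not tested. All 8 prostate luminal markers used (such as KLK3 and HOXB13) passed the count filter. Their summed levels were 4229 to 4319 CPM in C4-2-CON and 5314 to 5322 CPM in C4-2-ENZ. Of these markers 6 were higher and 2 lower, against 33.0% and 31.7% of all genes tested. The lower ones were KLK3, at means of 677 against 482 CPM, and KLK2, at 330 against 302 CPM. STEAP2 (1454 against 2077 CPM) and FOLH1 (1127 against 1410 CPM) made up most of the sum. IGF1, IGFBP3, IGFBP4, IGFBP5 and IGFBP6 are also abundant in stromal cells. Summed fibroblast markers were 9.31 to 11.4 CPM in C4-2-CON and 8.90 to 9.37 CPM in C4-2-ENZ. Of these 9 markers, 6 had at most 10 counts in every library and COL1A2 had none. Endothelial markers summed to 4.46 to 5.12 and 3.26 to 3.84 CPM, with 5 of 7 at 10 counts or fewer. Leukocyte markers summed to 1.53 to 1.80 and 4.08 to 4.15 CPM, with 5 of 7 at 10 counts or fewer and CD3E at 0. Neural stem markers summed to 4.28 to 5.42 and 2.80 to 2.82 CPM. In these bulk libraries, fewer cells of a type and less RNA per cell cannot be told apart.

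Across all genes, edgeR's quasi-likelihood test compared the groups over 20325 genes that passed a filter on low counts, with calls made below an adjusted p of 0.05. Of these genes 64.7% were called, 33.0% higher and 31.7% lower in C4-2-ENZ. Only 7.58% were called and at least 2-fold higher, and 10.1% called and at least 2-fold lower. Of the 8 IGF genes, 6 passed the filter; 4 were called higher, 1 lower and 1 was not called. Calls were this common across all genes, so the number of IGF genes called says little about them, and their sizes are described below. The median log2 fold change was 0.63 for the 6 tested IGF genes and -0.02 for all genes tested. With a correction for exon length and GC content, INSR, IGF2R and IGFBP2 had 0.36, 0.35 and 0.33, so the first median depends on that choice. The median of all genes was then 0.01. By size, 72 of the 20325 genes had a log2 fold change at or above that of IGFBP3, and 144 at or below that of IGF1R. Total count scaling raised the median log2 fold change over all genes by 0.188 and moved the share of called genes that were higher from 51.0% to 64.41%. Fold changes are relative to TMM scaling, and none of the 6 tested genes changed sign with total count scaling.

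**Figure D1:**
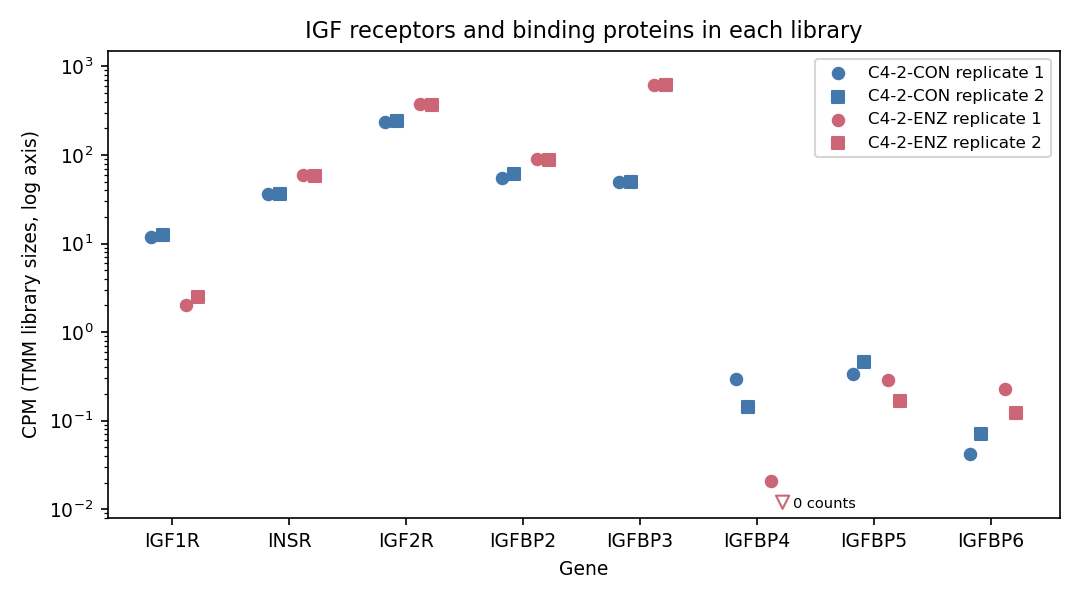
Level in CPM (log axis, TMM-scaled library sizes) of each of the 8 genes in each of the 4 libraries, circles for replicate 1 and squares for replicate 2. The IGFBP3 points lie at 49.6 CPM in both C4-2-CON and at 611 CPM in both C4-2-ENZ libraries, the IGF1R points fall, and the open triangle marks 0 counts of IGFBP4.

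The receptors moved unequally. IGF1R (chromosome 15, 98648539 to 98964530, plus strand, GRCh38) had 280 and 347 counts in C4-2-CON replicates 1 and 2 and 97 and 104 in C4-2-ENZ replicates 1 and 2. These were 11.8 and 12.4 CPM against 2.01 and 2.51 CPM. Both resistant libraries were low, and the groups did not overlap. The mean fell from 12.1 ± 0.438 to 2.26 ± 0.352 CPM (SD, n = 2), a log2 fold change of -2.42 (SE 0.118, adjusted p = 6.44e-09 by edgeR).

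INSR (chromosome 19, 7112255 to 7294034, minus strand) had 859 and 1022 counts in C4-2-CON and 2848 and 2414 in C4-2-ENZ, or 36.0 and 36.4 CPM against 59.1 and 58.2 CPM. The resistant pair was higher without overlap, with a log2 fold change of 0.69 (SE 0.0456, adjusted p = 8.21e-08 by edgeR). The counts are per gene, so the A and B splice forms of the insulin receptor, which differ in their affinity for IGF2, were not separated. IGF2R (chromosome 6, 159969099 to 160113507, plus strand) was the receptor with the most counts, 5581 and 6792 in C4-2-CON and 18051 and 15342 in C4-2-ENZ. Its level rose from 238 ± 5.6 to 372 ± 2.99 CPM (SD, n = 2; log2 fold change 0.64, SE 0.0366, adjusted p = 2.39e-08 by edgeR). AIRN, an antisense gene inside IGF2R that shares no exonic bases with it, had at most 15 counts per library.

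Within each library the balance of the kinase receptors shifted. INSR exceeded IGF1R per kilobase of exon 4.09-fold and 3.93-fold in the C4-2-CON libraries, and 39.2-fold and 31.0-fold in the C4-2-ENZ libraries. This ratio needs no scaling between libraries. It rests on exonic lengths of 13.94 kb for IGF1R and 10.45 kb for INSR in GENCODE 29, which count every annotated exon.

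The binding proteins split by abundance. IGFBP3, the main carrier of IGFs in blood and a protein that also limits growth independently of them (chromosome 7, 45912245 to 45921874, minus strand), had 1182 and 1391 counts in C4-2-CON and 29448 and 25325 in C4-2-ENZ. These were 49.58 and 49.57 CPM against 610.7 and 611.0 CPM. The control libraries were nearly equal, as were the resistant ones, and the log2 fold change was 3.62 (SE 0.0397, adjusted p = 1.24e-13 by edgeR). Such closeness with n = 2 is no measure of precision, since over all genes replicates differed by more than sampling noise.

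IGFBP2, the second binding protein of blood and one often made by epithelial tumours (chromosome 2, 216632828 to 216664436, plus strand), had 1314 and 1704 counts in C4-2-CON and 4313 and 3612 in C4-2-ENZ. Levels were 55.1 and 60.7 CPM against 89.5 and 87.1 CPM, higher in both resistant libraries. The log2 fold change was 0.61 (SE 0.0511, adjusted p = 7.3e-07 by edgeR).

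IGFBP5, a binding protein that attaches to extracellular matrix (chromosome 2, 216672105 to 216695525, minus strand), had 8 and 13 counts in C4-2-CON and 14 and 7 in C4-2-ENZ. Its levels of 0.336 and 0.463 CPM against 0.290 and 0.169 CPM did not overlap but lay close together. The log2 fold change of -0.78 (SE 0.433, adjusted p = 0.135 by edgeR) did not pass the test. An antisense gene covers 298 of its exonic bases and had 0 counts in every library. IGFBP5 lies 7.67 kb from IGFBP2, end to end, and this neighbour had 1314 to 4313 counts per library.

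IGFBP4 and IGFBP6 did not pass the count filter. IGFBP4, which inhibits IGF action until the protease PAPPA cuts it (chromosome 17, 40443461 to 40457731, plus strand), had 7 and 4 counts in C4-2-CON and 1 and 0 in C4-2-ENZ. The ratio of summed counts, resistant over control and scaled by library size, was 0.0526 with an exact 95% interval of 0.00122 to 0.362. The library with 0 counts allows up to 0.0724 CPM (3 counts). IGFBP6, which prefers IGF2 (chromosome 12, 53097436 to 53102345, plus strand), had 1 and 2 counts against 11 and 5, a ratio of 3.09 with an interval of 0.884 to 16.5. These intervals cover counting error only. Without a count filter, edgeR gave IGFBP4 a log2 fold change of -3.79 (adjusted p = 0.00339) and IGFBP6 one of 1.66 (adjusted p = 0.126).

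Per kilobase of exon, which allows levels of genes to be compared, IGF2R led in C4-2-CON at 13.3 ± 0.314 CPM per kb, before IGFBP2 at 12.2 ± 0.831, IGFBP3 at 10.9 ± 0.00217, INSR at 3.47 ± 0.0261 and IGF1R at 0.865 ± 0.0315 (SD, n = 2). IGFBP4, IGFBP5 and IGFBP6 followed at 0.0991 ± 0.0486, 0.0620 ± 0.0140 and 0.0421 ± 0.0154 CPM per kb, and neighbours among these last genes overlapped between libraries. In C4-2-ENZ the order began with IGFBP3 at 134 ± 0.0396 CPM per kb, before IGF2R at 20.9 ± 0.168, IGFBP2 at 18.5 ± 0.342 and INSR at 5.61 ± 0.0559. IGF1R at 0.162 ± 0.0252 and IGFBP6 at 0.130 ± 0.0565 CPM per kb overlapped there. IGFBP5 was at 0.0356 ± 0.0133 and IGFBP4 at 0.00471 ± 0.00667 CPM per kb.

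Among the 13942 protein-coding genes tested, the per-length level of IGFBP3 stood at percentile 72.3 in C4-2-CON and 98.9 in C4-2-ENZ, and that of IGF1R at percentile 22.9 and 7.56. The summed level of IGFBP2 to IGFBP6 was 22.6 and 23.8 CPM per kb in C4-2-CON and 152.6 and 152.1 CPM per kb in C4-2-ENZ. IGFBP3 made up 47.9% and 45.6% of this sum in control and 87.6% and 87.9% in resistant libraries, where IGFBP2, the larger part in control libraries, made up 12.3% and 12.02%.

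**Figure D2:**
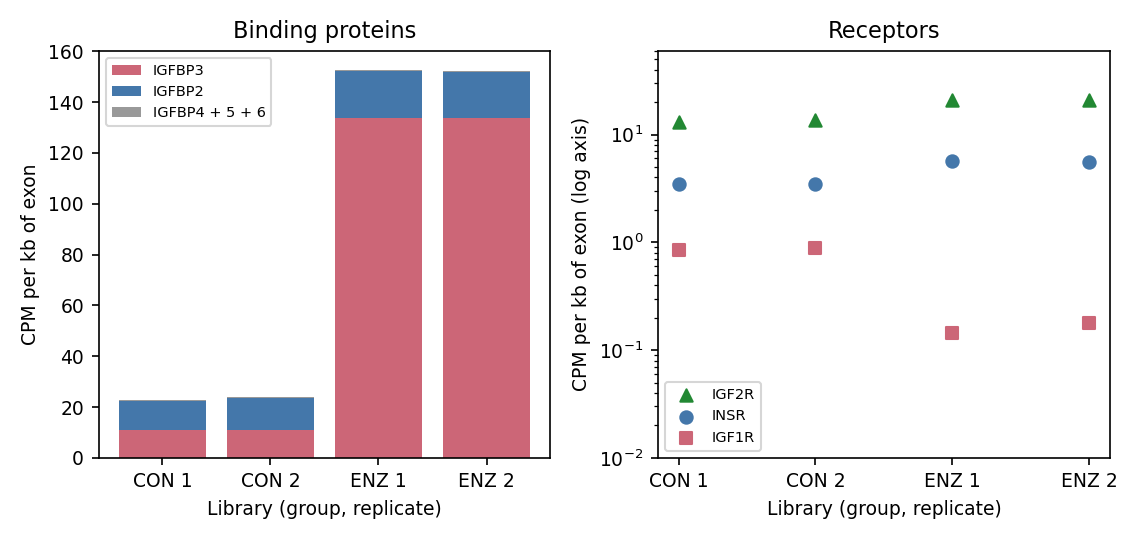
Left, stacked levels of the 5 binding proteins in CPM per kb of exon in each library, from 0; right, the 3 receptors on a log axis. The resistant bars reach 152.6 and 152.1 CPM per kb, nearly all IGFBP3 and IGFBP2, and IGF1R drops while INSR and IGF2R rise.

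The calls of the 5 genes held under each of the 11 other settings tried, with their direction. A correction for exon length and GC content lowered the smaller rises, to log2 fold changes of 0.36 for INSR, 0.35 for IGF2R and 0.33 for IGFBP2, and left IGFBP3 at 3.50 and IGF1R at -2.70. With any 1 library left out, IGFBP3 stayed at 3.63 to 3.64 and IGF1R between -2.25 and -2.57.

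**Figure D3:**
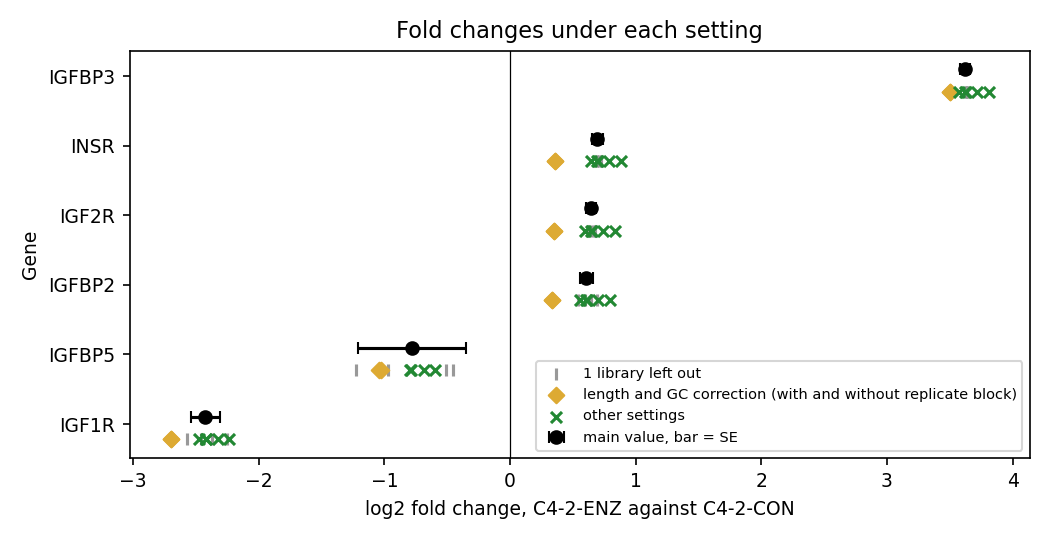
Log2 fold changes of the 6 tested genes: black points with SE for the reported values, and below each the values under other settings. IGFBP3 and IGF1R stay far from 0 throughout, INSR, IGF2R and IGFBP2 move toward 0 with the length and GC correction, and IGFBP5 spreads from -0.46 to -1.23 when 1 library is left out.

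**Figure D4:**
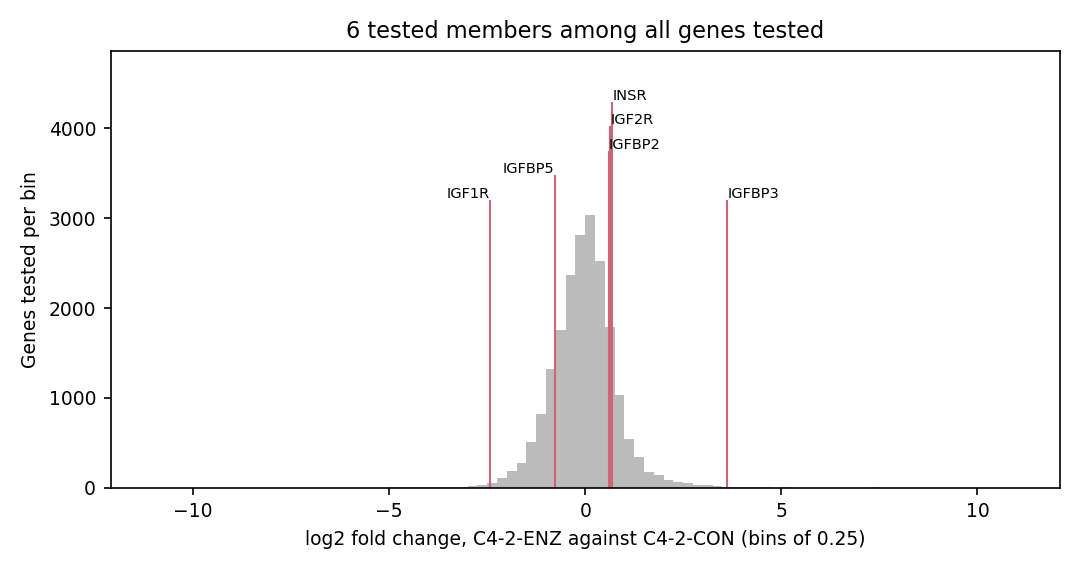
Number of genes tested per bin of 0.25 of log2 fold change (grey bars, from 0), with the 6 tested IGF genes as red lines. IGFBP3 at 3.62 and IGF1R at -2.42 lie in the tails, and INSR, IGF2R and IGFBP2 on the shoulder of the distribution.

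The other genes of the pathway were taken from a list of 40 genes, of which 33 passed the filter. Of these, 20 were called higher, 6 lower and 7 were not called, with a median log2 fold change of 0.28. Over all genes tested, 33.0% were called higher and 31.7% lower, around a median of -0.02. With the length and GC correction, 12 were called higher and 12 lower and the median was 0.05, so this split depends on that choice. The counts of single gene groups below stand against the same background of 64.7% called, and with so few genes each they single out no group.

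Among ligands, IGF1 fell. It had 188 and 218 counts in C4-2-CON and 86 and 72 in C4-2-ENZ, or 7.89 and 7.77 CPM against 1.78 and 1.74 CPM, with no overlap (log2 fold change -2.15, SE 0.125, adjusted p = 2.88e-08 by edgeR). The receptor IGF1R and its ligand IGF1 were thus 5.37-fold and 4.43-fold lower in the same libraries. IGF2 had 5 to 7 counts in each library and did not pass the filter, and INS had none. IGFALS, the acid-labile subunit that joins IGFBP3 and IGF in blood, had 6 and 7 counts against 19 and 16 (log2 fold change 0.63, adjusted p = 0.208 by edgeR). Of the other binding proteins, IGFBP1 had 1 and 0 counts against 12 and 4 and did not pass the filter. IGFBP7, a related protein that binds IGFs weakly, had 13 and 15 counts against 15 and 5, with a log2 fold change of -1.26 (adjusted p = 0.0249 by edgeR). That call ended without C4-2-CON replicate 1 (adjusted p = 0.0518), C4-2-CON replicate 2 (0.0626) or C4-2-ENZ replicate 2 (0.208, log2 fold change -0.77), with total count scaling (0.0514) and with DESeq2 (0.142). Without C4-2-ENZ replicate 1 the log2 fold change was -2.11 (adjusted p = 0.00976 by edgeR), so its size rests on 1 library.

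Among binding protein proteases and their inhibitors, the proteases HTRA1 and PAPPA were called higher and the inhibitor STC1 lower. HTRA1, a secreted serine protease that cleaves IGFBPs, had 5.24 and 4.74 CPM in C4-2-CON and 16.6 and 15.7 CPM in C4-2-ENZ (log2 fold change 1.70, SE 0.0851, adjusted p = 7.99e-09 by edgeR). STC1, a stanniocalcin that inhibits the IGFBP4 protease PAPPA, fell 10.3-fold, from 3.27 and 4.10 CPM to 0.311 and 0.410 CPM (adjusted p = 1.09e-07 by edgeR). STC2, the other stanniocalcin listed, was chosen after its values were seen and was not called (log2 fold change -0.08, adjusted p = 0.137 by edgeR). That result depended on the setting. STC2 was called higher with total count scaling, and lower with a filter of 1 CPM or the length and GC correction. Its level was far above that of STC1, at 94.3 and 94.15 CPM in C4-2-CON and 87.1 and 91.3 CPM in C4-2-ENZ. PAPPA itself, low throughout at 14 and 17 counts against 58 and 40, was chosen after its values were seen and rose by a log2 fold change of 0.87 (adjusted p = 0.0123 by edgeR). That call ended without C4-2-ENZ replicate 1 (adjusted p = 0.103), with DESeq2 (0.138) and with the length and GC correction (0.0667, or 0.0865 with the replicate block as well). Of the 5 genes in this list, 4 passed the filter, 2 were called higher and 1 lower, which the length and GC correction made 1 and 2. The share called is near the 64.7% of all genes.

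Of 8 adaptors tested, 5 were called higher and 1 lower, against 33.0% and 31.7% of all genes, which the length and GC correction made 3 and 2. The lower one was IRS1, a main docking protein of IGF1R and INSR, at 10.4 and 10.8 CPM in C4-2-CON against 7.32 and 6.15 CPM in C4-2-ENZ (log2 fold change -0.65, SE 0.0977, adjusted p = 0.000106 by edgeR). IRS2 had a log2 fold change of 0.57 (0.00439 as the adjusted p by edgeR). It became 0.20 (adjusted p = 0.259) with the length and GC correction. IRS4 had 5 and 8 counts against 23 and 25 (log2 fold change 1.09, adjusted p = 0.0273 by edgeR). Its call ended without any 1 of the 4 libraries, at adjusted p between 0.0516 and 0.17, and with DESeq2 (0.203). GRB10, an adaptor that inhibits both kinase receptors and was chosen after its values were seen, rose from 409 and 421 CPM to 821 and 811 CPM (log2 fold change 0.98, or 0.66 with the length and GC correction).

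In the PI3K and AKT branch, 10 of 12 genes passed the test, all as rises, whereas the length and GC correction gave 5 higher and 4 lower, near the 33.0% and 31.7% of all genes. PIK3R3, a regulatory subunit of PI3K, rose from 95.1 and 94.8 CPM to 194.7 and 195.5 CPM (log2 fold change 1.04, adjusted p = 8.64e-10 by edgeR). AKT1 and AKT2 had log2 fold changes of 0.35 (adjusted p = 6.77e-05 by edgeR) and 0.16 (adjusted p = 0.0127 by edgeR), which turned to -0.12 and -0.25 with the length and GC correction. The AKT2 call also ended with a filter of 1 CPM (log2 fold change 0.11, adjusted p = 0.0606 by edgeR). It ended too without C4-2-ENZ replicate 1 or 2 (log2 fold changes 0.17 and 0.18). FOXO3, a transcription factor that AKT keeps out of the nucleus, rose from 75.2 and 73.9 CPM to 199.6 and 202.9 CPM (log2 fold change 1.43, adjusted p = 1.05e-10 by edgeR). Of the 3 FOXO genes, 2 were called higher, against 33.0% of all genes. IGF2BP2, which binds IGF2 mRNA, had 8 and 18 counts against 9 and 7 (log2 fold change -1.47, adjusted p = 0.0125 by edgeR). Its call ended without C4-2-CON replicate 2 (adjusted p = 0.328, log2 fold change -0.89), C4-2-ENZ replicate 1 (0.0519) or C4-2-ENZ replicate 2 (0.0608) and with DESeq2 (0.114).

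**Figure D5:**
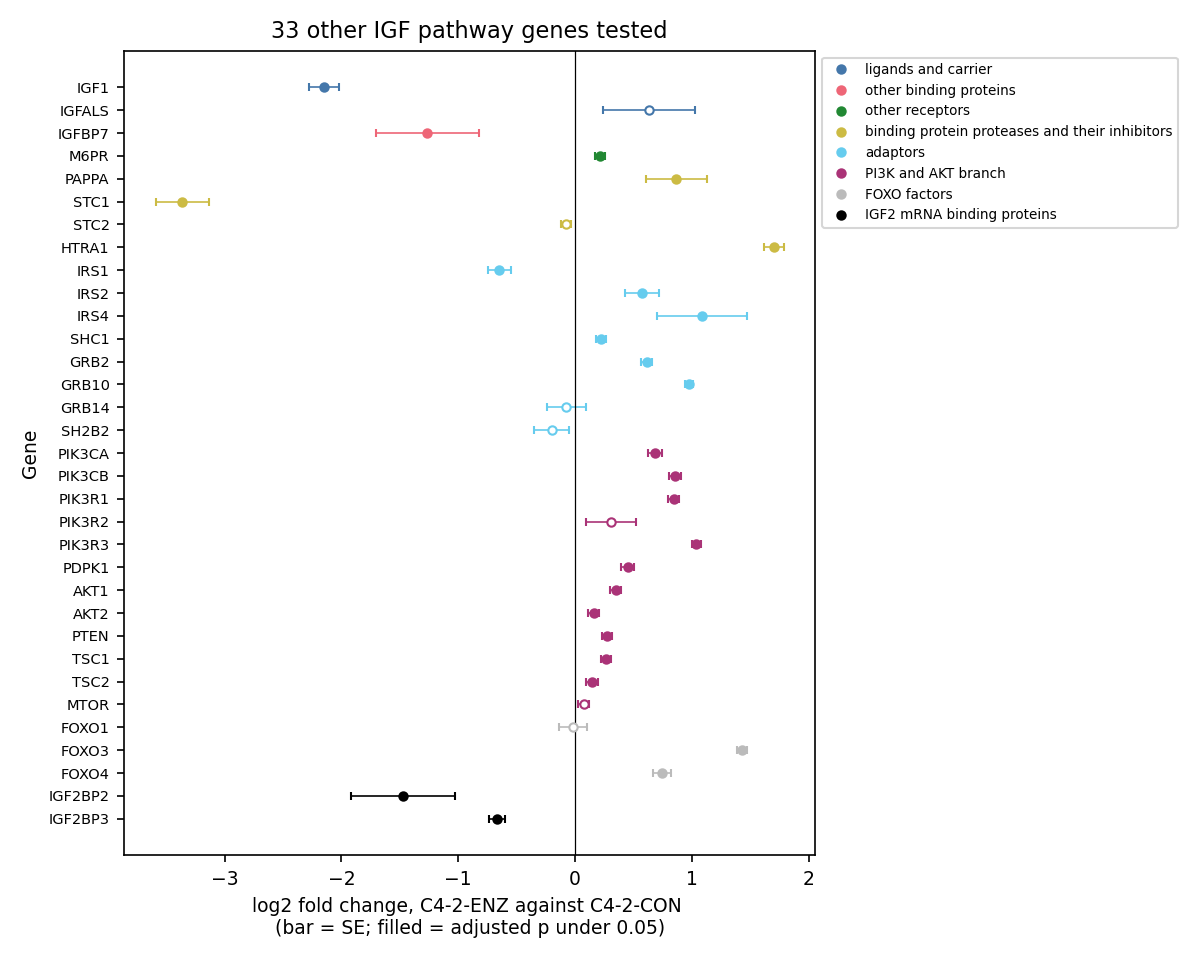
Log2 fold changes with SE of the 33 other IGF pathway genes tested, coloured by role; filled points were called and open points were not. STC1 (-3.36) and IGF1 (-2.15) lie farthest left and HTRA1 (1.70) and FOXO3 (1.43) farthest right.

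The genes whose levels over the 4 libraries were most like those of IGFBP3 were COLEC12, S1PR3 and SLPI, with Euclidean distances of 0.768, 0.931 and 1.01 in log2 CPM and log2 fold changes of 2.87, 2.92 and 2.76. For IGF1R they were OVGP1, TUBA3D and ZPLD1, at distances of 0.531, 0.605 and 0.729 and log2 fold changes of -2.28, -2.52 and -2.78. With 2 groups of 2 libraries, such likeness rests on level and on the 1 difference between groups.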

How the data were processed

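The deposited values are unnormalized read counts per gene, 1 table for each of the 4 libraries. The submitters' processing notes name STAR 2.5.2b, HTSeq and the build GRCh38 (hg38). How rRNA was removed, the mode and strand setting of HTSeq, and its annotation were not given in the sources used here, so antisense reads and reads that fit several genes may be misplaced. The 5 summary rows, 55.41% to 74.4% of records per library, were left out of library sizes and tests.

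Identifiers without version were matched to GENCODE 29 (56753 of 60483), which also gave positions, exonic lengths and GC content. Promoters are from RefSeq. Counts were filtered with filterByExpr (minimum count 10), scaled with TMM and tested with edgeR 4.0.16 (R 4.3.3), group as the only term and 2 residual degrees of freedom, with Benjamini-Hochberg adjustment over 20325 genes. SE is the size of the log2 fold change over the square root of F. CPM use TMM library sizes. The code was tested on simulated data. Replicates differed by more than sampling noise (chi-square per degree of freedom 5.67 over 22264 genes for C4-2-CON and 2.38 over 24030 for C4-2-ENZ). Settings varied were total count scaling, DESeq2 1.42.0, count filters, each library left out, a replicate block, and loess offsets for length and GC.

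The 8 genes and the gene lists were chosen with earlier results of these data known. A few genes, listed or flanking, are not reported here, and those listed were left out of counts and sums. Named were all 8, all ligands, AKT1, AKT2 and IRS genes, pathway genes called with a log2 fold change of at least 1 in size, and, for the largest rise and fall, the 3 protein-coding genes at the smallest Euclidean distance in log2 CPM (prior count 2).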

Additional observations from a re-analysis of the deposited data

How the results depend on the processing

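The 4 higher calls and the IGF1R call kept direction and side of the threshold under all 11 alternatives. The number of the 8 genes called lower rose from 1 to 2 without a count filter (IGFBP4) and with the replicate block and the length and GC correction together (IGFBP5, log2 fold change -1.04, adjusted p = 0.0455). The 40 other pathway genes gave 12 rises and 12 falls once length and GC were corrected for, whether the block was in the fit or not, where AKT1 turned to -0.12 and AKT2 to -0.25 in both fits. The cause was not tested. The labels do not say whether same-numbered replicates were paired. Their deviations correlated at -0.0228, which cannot settle this with 2 libraries per group. The replicate block alone called 6647 genes higher and 6444 lower and changed no call of the 8 genes. DESeq2 called 5568 higher and 4836 lower. Depth limits IGFBP4, IGFBP5 and IGFBP6, whose differences rest on 0 to 14 counts per library.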

Other observations

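The protein-coding genes that flank the IGF genes were looked at after the values of the IGF genes were seen. Beside IGFBP3, IGFBP1 lies 18.6 kb away with 1 and 0 counts in C4-2-CON and 12 and 4 in C4-2-ENZ libraries. On the other side, TNS3, which encodes the focal adhesion protein tensin 3, lies 1353 kb away, with 18 and 22 counts against 16 and 23 and a log2 fold change of -0.82 (adjusted p = 0.0446 by edgeR). In abundance, 29448 and 25325 counts of IGFBP3 in the resistant libraries stood between neighbours with at most 23. In direction, TNS3 was lower but IGFBP1 was higher, as was IGFBP3 (12.3-fold). The IGFBP1 ratio of summed counts, resistant over control and scaled by library size, was 9.26 with an exact interval of 1.44 to 388. That interval covers counting error only, and the ratio rests on 0 to 12 counts per library. Whether IGFBP1 and IGFBP3 rose together was not tested. Beside IGF1R, ARRDC4, an arrestin-domain gene, had a log2 fold change of 0.11 (adjusted p = 0.0891 by edgeR). PGPEP1L, 3.7 kb from IGF1R on the other side, had only 1 count, in C4-2-CON replicate 2. RPL37A, a ribosomal protein gene beside IGFBP2, was lower, with a log2 fold change of -0.54 (adjusted p = 4.2e-07 by edgeR), where IGFBP2 was higher. TOP2A, which encodes a DNA topoisomerase and lies beside IGFBP4, was also lower (log2 fold change -0.65, adjusted p = 3.44e-08 by edgeR). SPRYD3, beside IGFBP6, was higher (log2 fold change 0.71, adjusted p = 9.96e-07 by edgeR). ZNF557, beside INSR, was not called (log2 fold change 0.01, adjusted p = 0.902 by edgeR). The flanking genes AC119396.1, MAS1, TNS4, TNP1 and SOAT2 had at most 8 counts in any library.

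IGFBP3 exceeded IGF1R per kilobase of exon 12.9-fold and 12.2-fold in the C4-2-CON libraries and 925.9-fold and 742.7-fold in the C4-2-ENZ libraries. Against IGF2R it stood at 0.827 and 0.799 in C4-2-CON and at 6.37 and 6.44 in C4-2-ENZ.

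Among marker genes of other cell types, ITGAM, an integrin of myeloid cells, had 9 and 7 counts in C4-2-CON and 163 and 126 in C4-2-ENZ, while PTPRC and CD14 had at most 4 counts in any library. KDR, a receptor for VEGF, had 0 and 1 counts against 24 and 13, while PECAM1 had at most 3.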
